A study of Homo sapiens with 8 samples.

Results

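The PLEC mRNA encodes plectin, a very large cytolinker of the plakin family. Plectin ties intermediate filaments to actin, to microtubules and to adhesion complexes at the cell membrane, and its loss causes skin blistering with muscle disease. The 3′ portion of the gene is known for long coding exons, which encode the rod and the plakin repeat domains. G3BP1, the protein whose binding was mapped, binds RNA and is a core scaffold of stress granules, the RNA and protein condensates that form when translation initiation stalls.

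The binding data are seCLIP, a single-end form of enhanced crosslinking and immunoprecipitation. The cells were HEK293T, a cell line derived from human embryonic kidney. UV light links proteins to RNA, an antibody pulls down G3BP1 with its RNA (IP), and the recovered fragments are set against RNA that skipped the pull-down (Input). In all, 8 libraries fall into 4 groups of 2 replicates: IP and Input after 20 µM PDS for 12 h (PDS), and IP and Input of untreated cells (Ctrl). The labels do not spell out PDS, which in work on guanine quadruplexes usually stands for pyridostatin, a ligand that stabilises these stacked nucleic acid structures.

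PLEC peaks are those on the minus strand of chromosome 8 that lie inside 144989300 to 145051000 (hg19), the span taken as the gene. They numbered 48 of the 2925 peaks in the PDS list (1.64%) and 32 of the 1421 peaks in the Ctrl list (2.25%). The gene was chosen by its number of peaks, which was known beforehand, so its counts are a description and support nothing. Each condition has 1 combined peak list for its 2 replicates, with 1 log2 fold of IP over input and 1 −log10 p per peak, both as deposited by the authors. The lists give no value per replicate, and values of the single libraries were not analysed here. No difference between PDS and Ctrl was therefore tested against replicate spread, and the number of reads behind a peak is unknown. Whether the replicates came from separate cultures is not stated in the labels. Fewer bound molecules and less PLEC mRNA in the cells cannot be told apart in these lists beyond what the division by input removes.

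The PLEC peaks were selected by strand and position, so their match to the label in both is fixed by construction. The opposite strand of the span held 0 peaks in either list, and 0 peaks crossed its borders. The nearest peaks on the same strand lay far outside it. Toward the 3′ side the next PDS peak was 49608 nt and the next Ctrl peak 49708 nt from the first PLEC peak. Toward the 5′ side the next PDS peak was 310066 nt and the next Ctrl peak 1006983 nt from the last PLEC peak. An hg19 annotation was not used here, so no peak is assigned to an exon, an intron, a UTR or a protein domain. In RefSeq's GRCh38.p14 gene table, PLEC (gene ID 5339) stands between the protein-coding genes EPPK1, which encodes the related plakin epiplakin, and PARP10.

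In PDS-treated cells the PLEC peaks were packed into the middle of the bound stretch. In untreated cells a larger part of them lay toward the 3′ end. The borders of this middle were set after the values had been seen. The median log2 fold of the PDS peaks was 4.67 in the middle. It was 4.61 at the 3′ end and 4.90 at the 5′ end, with 2 PDS peaks at each end. The middle 7000 nt held 44 of 48 PDS peaks and 15 of 32 Ctrl peaks. With peaks within 50 nt merged, these were 15 of 19 PDS regions and 12 of 26 Ctrl regions. The 5000 nt at the 3′ end held 2 PDS peaks and 12 Ctrl peaks, or 2 PDS and 9 Ctrl regions after merging. Where both lists covered the same nucleotides, the log2 fold averaged 4.77 in PDS and 3.83 in Ctrl. The length covered by peaks was nearly the same, 2289 nt in PDS and 2204 nt in Ctrl, a ratio of 1.04, against 1.74 over the whole lists. Among peaks with a log2 fold of at least 4 and a −log10 p of at least 5, the lengths were 2057 nt in PDS and 957 nt in Ctrl, a ratio of 2.15.

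**Figure D1:**
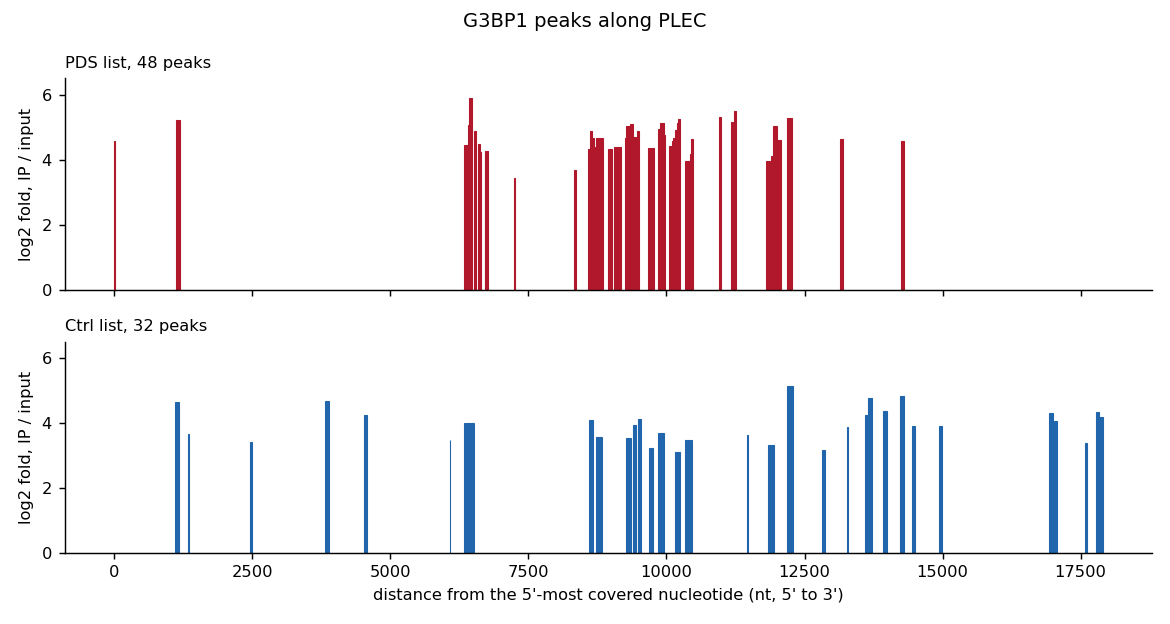
G3BP1 peaks along PLEC, with the PDS list above and the Ctrl list below. The x axis is the distance in nt from the 5′-most covered nucleotide, running 5′ to 3′, and each bar is 1 peak drawn at its own width and at the height of the authors' log2 fold of IP over input; 44 of 48 PDS peaks and 15 of 32 Ctrl peaks lie in the middle of the stretch.

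All PLEC peaks of both lists lay between 144990307 and 145008211, a stretch of 17905 nt at the 3′ side of the span. The 42789 nt of the span that lie farther 5′ held 0 peaks in either list, and so did the 1007 nt at its 3′ end. The Ctrl peaks reached from 144990307 to 145007108 (16802 nt), and the PDS peaks from 144993918 to 145008211 (14294 nt). A single PDS peak of 20 nt lay 5′ of all Ctrl peaks, and on the 3′ side the Ctrl peaks reached farther. The widest gaps without a peak of either list were 1934 nt from 144991283 to 144993216, 1493 nt from 145002139 to 145003631 and 1318 nt from 145004398 to 145005715.

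The stretch was divided into 18 windows of 1000 nt, counted from the 3′-most peak, and a peak was put in the window of its midpoint. PDS peaks occupied 11 windows and Ctrl peaks 14 windows, with 9 in common. Ctrl peaks alone stood in 5 windows, PDS peaks alone in 2, and 2 windows held none. The windows were joined into 3 stretches after their values had been seen: windows 1 to 5 at the 3′ end, windows 6 to 12 in the middle and windows 13 to 18 at the 5′ end.

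**Figure D2:**
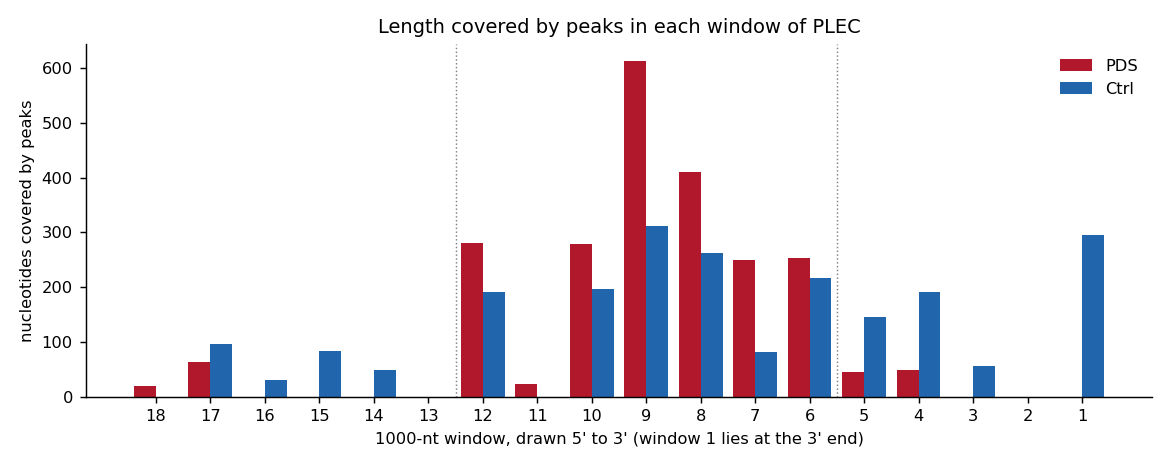
Nucleotides covered by PLEC peaks in each 1000-nt window, drawn 5′ to 3′ with window 1 at the 3′ end, for the PDS list (red, left bar) and the Ctrl list (blue, right bar). Dotted lines part the 3 stretches; window 9 has the most covered length in both lists, 613 nt in PDS and 311 nt in Ctrl, and window 1 is covered in Ctrl alone.

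At the 5′ end (145002307 to 145008211) PDS peaks covered 84 nt and Ctrl peaks 257 nt. There were 2 PDS peaks. The 5′-most, 145008192 to 145008211, had a log2 fold of 4.57 and met no Ctrl peak. The other, 145007025 to 145007088, had a log2 fold of 5.22 and met the Ctrl peak at 145007032 to 145007108, with a log2 fold of 4.65. This was the only site of the 5′ windows held by both lists. The other 4 Ctrl peaks of the 5′ windows had no PDS peak over them. The strongest, at 145004315 to 145004397, had a log2 fold of 4.66 and a −log10 p of 32.2. Its neighbour, 145003632 to 145003679, had 4.25 on the log2 scale. The remaining 2 were short and weaker, at 145006852 to 145006870 (log2 fold 3.66) and at 145005716 to 145005745 (log2 fold 3.41). In the PDS list this absence formed the widest gap between PLEC peaks, 5154 nt from 145001871 to 145007024.

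The middle windows (144995307 to 145002306) carried 92.2% of the covered length of PLEC in PDS and 57.2% in Ctrl. Peaks covered 30.2% of these 7000 nt in PDS (2111 nt) and 18% in Ctrl (1260 nt). The median log2 fold of the peaks in these windows was 4.67 in PDS, with a range of 3.44 to 5.89, and 3.55 in Ctrl, with a range of 3.10 to 5.12. The ranges overlapped, but a log2 fold of at least 4 was reached by 40 of the 44 PDS peaks and by 3 of the 15 Ctrl peaks.

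The 5′ edge of the middle stretch held the strongest PDS site of the gene. The Ctrl list had 1 peak there, the widest of the list on PLEC at 178 nt (145001705 to 145001882), with a log2 fold of 4.0 and a −log10 p of 61.9, the highest of any Ctrl peak on PLEC. In the PDS list 3 abutting peaks stood over it, with log2 folds of 4.45, 5.07 and 5.89 in 5′ to 3′ order. The last of them, 145001728 to 145001778, was the most enriched PDS peak on PLEC and the fourth of all 2925 peaks in its list. All 3 had the −log10 p of 400 that stands in for the highest values. On its 3′ side the PDS list added 5 peaks that no Ctrl peak met, from 145001447 to 145001700, with log2 folds of 4.17 to 4.88. Among them were the narrowest PDS peaks of the gene, of 2 nt (145001578 to 145001579, log2 fold 4.24) and 5 nt (145001499 to 145001503, log2 fold 4.17). On the 5′ side the narrowest Ctrl peak of the gene, 14 nt at 145002125 to 145002138, showed 3.47 on the log2 scale and no PDS partner.

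Between this site and the main cluster lay sparse and weak peaks. The least enriched PDS peak on PLEC, at 145000952 to 145000975, had a log2 fold of 3.44 and a −log10 p of 28.7. The next weakest, at 144999858 to 144999891, had a log2 fold of 3.70. No Ctrl peak stood here: the widest gap of the Ctrl list on PLEC, 2085 nt, ran from 144999620 to 145001704.

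The main cluster ran from 144997724 to 144999629 and carried most of the PDS peaks at the highest −log10 p. At its 5′ side, 5 PDS peaks between 144999364 and 144999629 had log2 folds of 4.33 to 4.87, and the 2 Ctrl peaks under them, at 144999375 to 144999491 and 144999541 to 144999619, had 3.55 and 4.10. Next came a site of PDS peaks alone, at 144999027 to 144999153 and 144999195 to 144999267, with log2 folds of 4.40 and 4.34. The first of these was the widest PDS peak on PLEC, at 127 nt.

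The region with most peaks of both lists came next. From 144998674 to 144998954, 6 abutting PDS peaks with log2 folds of 4.67 to 5.11 stood over 3 Ctrl peaks with log2 folds of 3.52, 3.94 and 4.10. Farther 3′, the PDS peak at 144998442 to 144998541 had a log2 fold of 4.37 and a −log10 p of 400, and its Ctrl counterpart at 144998457 to 144998518 had 3.21 and 15.1. From 144998244 to 144998364, 3 abutting PDS peaks reached 5.14 where the single Ctrl peak had 3.68. In each of these sites every PDS peak was above every Ctrl peak.

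The widest contrast followed at 144997967 to 144998171. There 6 abutting PDS peaks had log2 folds of 4.41, 4.57, 4.68, 4.91, 5.12 and 5.25 in 5′ to 3′ order, and 5 of them had a −log10 p of 400. The Ctrl peak beneath the 3′ part, 144997971 to 144998049, had a log2 fold of 3.10, the lowest of any Ctrl peak on PLEC, and a −log10 p of 19.0. The highest values of the lists in this region differed by 2.14 on the log2 scale. At the 3′ side of the cluster, 3 abutting PDS peaks (144997724 to 144997866) had log2 folds of 3.96, 4.19 and 4.63, and the Ctrl peak at 144997746 to 144997882 had 3.48.

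The 3′ edge of the middle stretch was mixed. Sites of the PDS list alone lay at 144997217 to 144997267 (log2 fold 5.32) and at 144996952 to 144997044, where abutting peaks had log2 folds of 5.15 and 5.49. The higher of the pair was the second most enriched PDS peak of the gene. No Ctrl peak was listed over them. A Ctrl peak without a partner lay beside them at 144996735 to 144996757 (log2 fold 3.63). From 144996139 to 144996411, 4 abutting PDS peaks had log2 folds of 3.97 to 5.04, against 3.31 for the Ctrl peak at 144996259 to 144996365.

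The last shared site of the middle was nearly equal in the lists. The most enriched Ctrl peak on PLEC, at 144995924 to 144996034, had a log2 fold of 5.12 and stood 26th in the Ctrl list. The PDS peak inside it, 144995945 to 144996030, had a log2 fold of 5.29. The −log10 p was 67.0 in PDS and 34.1 in Ctrl. On its 3′ side, beyond 530 nt without a peak, the Ctrl peak at 144995336 to 144995393 had a log2 fold of 3.16 and no PDS partner.

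At the 3′ end (144990307 to 144995306) the order of the lists turned. PDS peaks covered 94 nt (1.88% of the 5000 nt) and Ctrl peaks 687 nt (13.7%). The Ctrl peaks there were as a group more enriched than those of the middle. Their median log2 fold was 4.21, with a range of 3.38 to 4.82, against 3.55 for the Ctrl peaks of the middle windows. Of the 12, 8 had a log2 fold of at least 4.

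The second most enriched Ctrl peak of the gene, at 144993911 to 144993973 (log2 fold 4.82), was the only Ctrl peak of these windows with a PDS peak over it. That PDS peak, 144993918 to 144993965, had a log2 fold of 4.58, so that this was the single shared region in which PDS was the lower. The Ctrl peaks around it had none. Those at 144994488 to 144994564 and 144994222 to 144994289 had log2 folds of 4.75 and 4.37. The other PDS peak of these windows, at 144995023 to 144995068 (log2 fold 4.63), lay between Ctrl peaks and met none of them.

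The 3′-most 5 Ctrl peaks stood in window 1, between 144990307 and 144991282. The highest had log2 folds of 4.33 (144990374 to 144990438), 4.29 (144991215 to 144991282) and 4.17 (144990307 to 144990373). The first and the last of these abut and are the only abutting Ctrl peaks on PLEC. No PDS peak lay in windows 1 to 3. A peak missing from a list does not show that G3BP1 was absent, since the number of reads there is unknown.

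Peaks of both lists within 50 nt of each other were joined into 34 regions. Of these, 11 held peaks of both lists (37 PDS and 14 Ctrl peaks), 8 held PDS peaks alone (11 peaks) and 15 held Ctrl peaks alone (18 peaks). In the 11 regions in common, the highest log2 fold was larger in PDS in 10. The median difference, PDS minus Ctrl, was 1.15, with a range of −0.24 to 2.14. A maximum over 37 PDS peaks and 14 Ctrl peaks favours PDS by construction. The 1-to-1 pairs of peaks gave a median difference of 0.67 and the nucleotides covered in both lists a mean difference of 0.94. The regions of Ctrl alone had highest log2 folds of 3.16 to 4.75 and those of PDS alone 3.44 to 5.49.

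**Figure D3:**
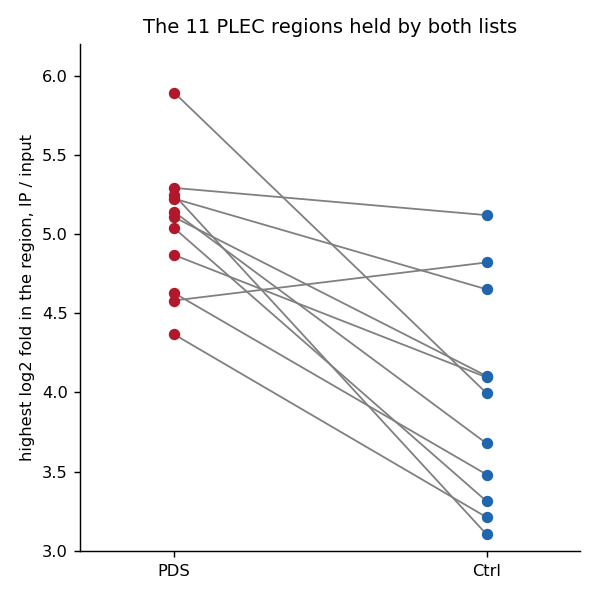
Highest authors' log2 fold of IP over input in each of the 11 PLEC regions that hold peaks of both lists, with PDS at the left and Ctrl at the right; a line joins the values of 1 region, and there are no error bars because the replicates were combined. In 10 of 11 regions the PDS value is the higher one, where the maximum is taken over 37 PDS and 14 Ctrl peaks and so favours PDS.

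Overlap by at least 1 nt on the same strand was counted peak by peak. Of the PDS peaks on PLEC, 28 of 48 (58.3%, exact 95% interval 43.2 to 72.4%) met a Ctrl peak, where 30.6% of all PDS peaks did. This share of the PDS peaks on PLEC was 20.8% when each peak had to cover 50% of the other. It was 15.9% under the stricter limits on fold and −log10 p, and 79.2% when peaks within 100 nt counted as met. The 30.6% of all PDS peaks belongs to overlap by at least 1 nt. The share of the whole list at the other settings is not given here. Of the Ctrl peaks on PLEC, 14 of 32 (43.8%, 26.4 to 62.3%) met a PDS peak, where 51.5% of all Ctrl peaks did. The intervals cover counting error only and treat neighbouring peaks as independent, which they are not. The interval for the Ctrl peaks on PLEC holds the 51.5% of the whole list. By count, the 18 Ctrl peaks without a PDS partner were more than in any other of the 1192 loci. The next highest number was 10. Loci are stretches in which peaks of either list follow each other on a strand with gaps of at most 10000 nt. PLEC also had the second highest number of Ctrl peaks, 32, and a locus with more peaks can have more without a partner. By PDS peaks without a Ctrl partner, 20, PLEC stood sixth, tied with another locus.

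On PLEC the shared peaks had the higher median log2 fold in PDS, and the unshared peaks had it in Ctrl. In PDS the median log2 fold was 4.79 for shared and 4.52 for unshared peaks, against 3.97 and 3.47 over the whole PDS list. In Ctrl it was 3.81 for shared and 3.97 for unshared peaks, against 3.63 and 3.43 over the whole Ctrl list. The locus with most peaks, on chromosome X, had the same order, with 4.86 and 4.55 in PDS and 4.36 and 4.66 in Ctrl. The locus next after PLEC by number of peaks, on chromosome 3, had this order in PDS alone, with 4.77 and 3.73. In Ctrl its order was the opposite, with 3.67 for shared and 3.34 for unshared peaks. The difference was not tested, since peaks of 1 transcript are not replicates.

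Exactly 1 PDS peak met exactly 1 Ctrl peak in 6 pairs on PLEC. The log2 fold was higher in PDS in 5 of the 6, where it was higher in 62.0% of the 410 such pairs over all loci. The median difference, PDS minus Ctrl, was 0.67 on PLEC and 0.15 over all loci. Of the 6 pairs, 4 differed by more than 0.5 in favour of PDS. In order of their difference these were the peaks described above at 144998442 (1.15), 144999364 (1.11), 144998700 (0.77) and 145007025 (0.57). The remaining 8 shared Ctrl peaks each met 2 or 3 PDS peaks, and every one of those PDS peaks had a higher log2 fold than the Ctrl peak it met.

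Nucleotide by nucleotide, 1163 nt of PLEC lay in peaks of both lists, which is 50.8% of the covered length in PDS and 52.8% of that in Ctrl. At 95.9% of them the log2 fold of the covering peak was higher in PDS, by 0.94 on average. Over the whole lists 47980 nt were covered in both, and the PDS value was higher at 64.3% of them, by 0.26 on average.

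PDS peaks on PLEC were narrow and often abutted each other. The median width on PLEC was 41.5 nt in PDS and 64 nt in Ctrl, with 60.4% and 25% of the peaks under 50 nt. Over the whole lists it was 63 nt and 74 nt, with 38.1% and 24.3% under 50 nt. PDS peaks of the chromosome X locus were narrower than those on PLEC, with a median of 24 nt and 81.9% under 50 nt. Those of the chromosome 3 locus had a median of 48 nt and 53.7% under 50 nt. A peak began where the previous one ended in 24 of 48 PDS peaks (50%, against 23.7% of the PDS list) and in 1 of 32 Ctrl peaks (3.12%, against 11.1% of the Ctrl list). When abutting peaks were counted as 1, PLEC held 24 in PDS and 31 in Ctrl, and when peaks within 50 nt were merged, 19 and 26. Which list had more peaks over the whole gene thus turned when neighbouring peaks were joined. In the middle windows PDS still held more merged regions, 15 against 12 in Ctrl. Ctrl held more at the 3′ end, 9 against 2, and at the 5′ end, 5 against 2. Merged PDS regions had a median width of 93 nt and a largest of 293 nt, and merged Ctrl regions had a median of 72.5 nt and a largest of 272 nt.

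Within the 11 runs of abutting PDS peaks, which held 35 peaks, the log2 fold increased piece by piece in 5′ to 3′ order in 6 runs. It decreased in 2 and did neither in 3. Both runs that decreased and 3 of the 6 that increased had only 2 peaks.

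The authors' log2 folds on PLEC were high beside the whole list in both PDS and Ctrl. The median was 4.66 in PDS (quartiles 4.39 and 5.03), against 3.59 over the PDS list, and 3.91 in Ctrl (quartiles 3.51 and 4.26), against 3.52 over the Ctrl list. A log2 fold of at least 4 was reached by 44 of 48 PDS peaks (91.7%), where 27.6% of the PDS list did so, and by 14 of 32 Ctrl peaks (43.8%), where 22.0% of the Ctrl list did so. The chromosome X locus had higher medians than PLEC, 4.77 in PDS and 4.40 in Ctrl. Of its peaks, 100% in PDS and 69.8% in Ctrl had a log2 fold of at least 4. The chromosome 3 locus had lower medians, 4.19 in PDS and 3.56 in Ctrl, with 56.1% and 25.9% of peaks at that limit. These percentages were not tested.

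The −log10 p was also high on PLEC. It was at the stand-in value of 400 in 26 of 48 PDS peaks (54.2%, against 2.80% of the PDS list) and in 0 of 32 Ctrl peaks (against 0.563% of the Ctrl list). All 26 lay in the middle windows. The PDS list had 82 such peaks in 24 loci, so that PLEC alone held 31.7% of them, and the next locus held 10. The highest −log10 p on PLEC was 61.9 in Ctrl, which 34 of the 48 PDS peaks exceeded. The lowest was 28.7 in PDS, above 74.0% of the PDS list, and 7.81 in Ctrl, above 22.9% of the Ctrl list. In Ctrl, 24 of the 32 peaks lay under the lowest PDS value.

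**Figure D4:**
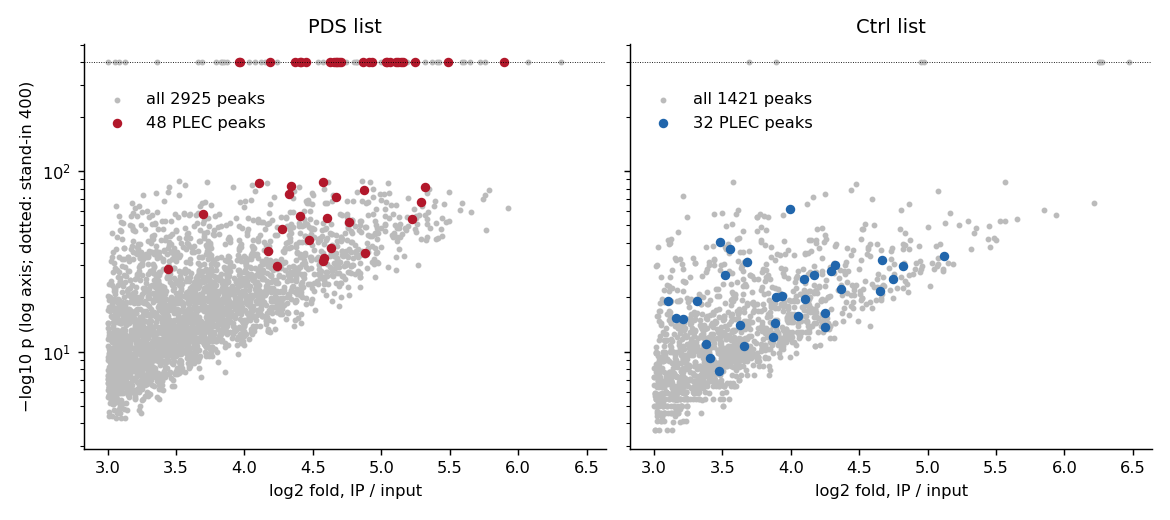
The authors' −log10 p (y, log axis) against their log2 fold of IP over input (x) for every peak, with the PDS list at the left and the Ctrl list at the right; grey points are all peaks and coloured points those on PLEC. The dotted line marks the stand-in value of 400, where 26 PDS peaks and 0 Ctrl peaks of PLEC lie.

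Set beside peaks of like fold, the −log10 p of PLEC was the higher in each of the 5 fold classes of the PDS list and in the Ctrl classes under 4.5. Among PDS peaks with a log2 fold from 4 to under 4.5, the median −log10 p was 82.3 for the 13 on PLEC and 25.7 for all 458. Among Ctrl peaks of that class it was 22.1 for the 9 on PLEC and 19.1 for all 194. In the Ctrl class from 4.5 to under 5 the order turned, with 27.5 for the 4 on PLEC and 28.5 for all 81. In the Ctrl class from 5 up, the 1 peak on PLEC had 34.1, against a median of 46.8 for all 38. For the same fold, more reads give a larger −log10 p. The reads are not known here, and their part in these values was not tested.

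By peaks in both lists together PLEC ranked second of 1192 loci. Ahead of it was a minus-strand locus on chromosome X (153577052 to 153596260) with 72 PDS and 43 Ctrl peaks. After it came a plus-strand locus on chromosome 3 (184017025 to 184053095) with 41 PDS and 27 Ctrl peaks. By covered length PLEC ranked first in each list, where the highest other locus had 2223 nt in PDS and 1791 nt in Ctrl. The chromosome X locus resembled PLEC in its many abutting PDS peaks (44.4%) but kept more of its Ctrl peaks. Of these, 34 of 43 (79.1%) met a PDS peak, as did 17 of 27 (63.0%) in the chromosome 3 locus. Of the PDS peaks, 69.4% on chromosome X and 53.7% on chromosome 3 met a Ctrl peak, against 58.3% on PLEC. The covered length had a PDS to Ctrl ratio of 1.20 on chromosome X and 1.24 on chromosome 3, both nearer to that of PLEC than to the ratio of the whole lists. Where both lists covered the same nucleotides, the mean difference in log2 fold, PDS minus Ctrl, was 0.50 on chromosome X and 0.65 on chromosome 3, against 0.94 on PLEC. Merging within 50 nt left 32 PDS and 30 Ctrl regions on chromosome X and 22 and 20 on chromosome 3, so that PLEC was the only one of the 3 with fewer merged regions in PDS. None of these differences between loci was tested.

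**Figure D5:**
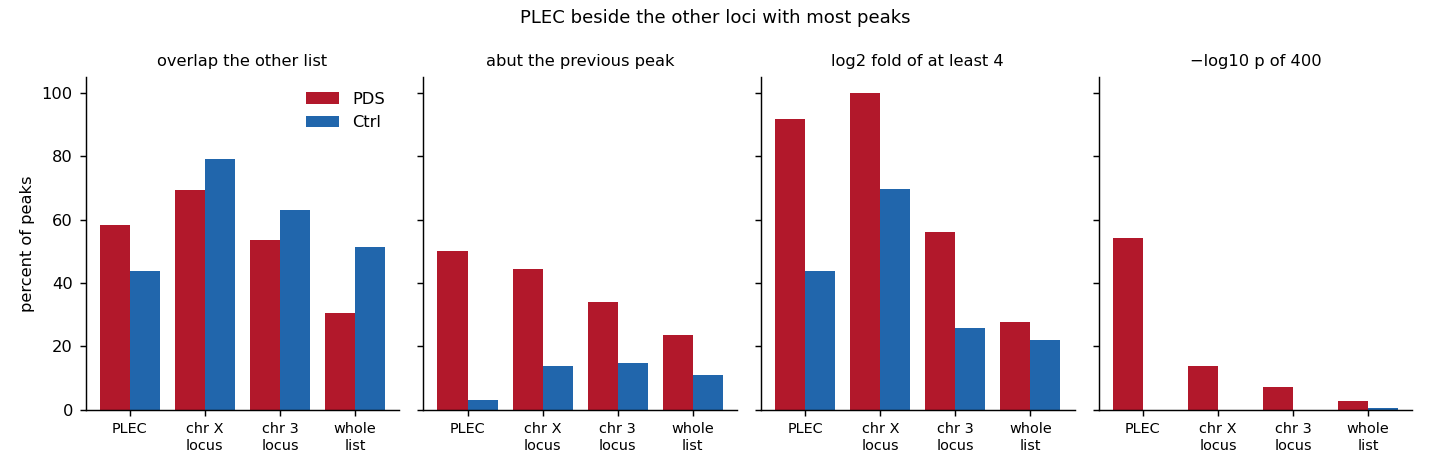
Percent of peaks (y) that overlap the other list, abut the previous peak, have a log2 fold of at least 4 or have a −log10 p of 400, for PLEC, the other 2 loci with most peaks and the whole lists, with PDS in red at the left of each pair and Ctrl in blue. PLEC has the highest bar for a −log10 p of 400 in PDS (54.2%) and the lowest for Ctrl peaks that overlap the other list (43.8%).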

How the data were processed

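Peaks came from 8 seCLIP libraries (PDS IP, PDS Input, Ctrl IP and Ctrl Input, 2 replicates each), which the authors deposited as 1 combined list per condition. Per the submitters' processing notes, cutadapt, UMI-tools and STAR were used with build hg19; for the peak caller and for how replicates became 1 list, the sources used here give nothing. The files have no header: the first value column was read as the deposited −log10 p and the second as the deposited log2 fold of IP over input, from their range and the usual eCLIP order. The highest −log10 p, 400, was read as a stand-in. Starts were read as counted from 0 and are printed counted from 1.

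Peaks inside the PLEC span were selected, overlapped (at least 1 nt, same strand), merged within 50 nt, chained over gaps of up to 10000 nt and counted in 1000-nt windows in Python 3.11.15 with pandas 2.3.3, numpy 2.4.6 and scipy 1.17.1. Overlap and merging were tested against bedtools 2.31.1 on the deposited lists. Overlap was also tested on Ctrl peaks shifted by less than their width, which must overlap their originals. Of these 7 checks, 0 differed. The selection, the chaining into loci and the window counts were not checked in this way. Named peaks follow a written rule: the 8 highest log2 folds per list, peaks at 400, extremes of width and position, pairs more than 0.5 apart, and the strongest regions of 1 list; peaks at 400 are named partly as runs. The gene, its span and these rules were chosen with earlier results of these data known. Depth per library was not analysed here. The planned count over plakin and intermediate filament genes needs an hg19 annotation and was not run. Sequence of this locus is not reported here.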

Additional observations from a re-analysis of the deposited data

How the results depend on the processing

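Of 50 alternative values, 35 stayed close to the deposited setting, 13 moved and 2 turned. Close means within 1.5 times, or within the exact 95% interval for percentages. That interval treats neighbouring peaks as independent, which they are not, and it is wide for the 32 Ctrl peaks. The percentage of Ctrl peaks shared thus counted as close when it fell from 43.75 to 31.25 with reciprocal overlap of 50%. The ratio of PLEC peaks, PDS over Ctrl, was 1.5 and turned to 0.77 with abutting peaks joined (24 in PDS) and to 0.73 with peaks merged within 50 nt (19 in PDS). With a log2 fold of at least 4 and a −log10 p of at least 5, Ctrl peaks numbered 14 over 957 nt. The ratios were then 3.14 for peaks and 2.15 for covered length. Those of the whole lists at these limits are not given here. The percentage of PDS peaks shared was 20.8 with reciprocal overlap of 50%, 79.2 within 100 nt and 15.9 at the stricter threshold. The median difference in log2 fold, PDS minus Ctrl, was 1.15 over merged regions. Joining pieces and stricter limits leave fewer peaks by construction; other causes were not tested. Among the 12 alternatives for the 3 stretches, the PDS peaks of the middle became 15 regions on merging and the Ctrl peaks there 3 at the stricter threshold, and the 5′ Ctrl peaks became 3. At the 3′ end, PDS held 2 and Ctrl 9 regions on merging, and PDS 2 and Ctrl 8 peaks at the stricter threshold. These, and the counts with a shortened PDS list, were added once the values had been seen. Shortening the PDS list to the 1421 most enriched peaks left 47 of the 48 on PLEC. No paired analysis was possible because each list used here gives 1 value per peak for both replicates together, so no replicate was left out either. The unknown depth limits any statement on missing peaks.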
